A study of Mus musculus with 6 samples.

Results

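The NMDA receptor subunit genes of the mouse are *Grin1*, *Grin2a*, *Grin2b*, *Grin2c*, *Grin2d*, *Grin3a* and *Grin3b*. All 7 were matched by symbol among the 55421 genes of a count table from whole retinas, and all 7 were among the 16575 that passed the filter on low counts. The table holds 3 retinas of control mice (*Yap*fl/fl; animals YR612, YR613 and YR615) and 3 retinas of *Yap* cKO mice (*Yap*fl/fl;*Rax*CreERT2; animals YR711, YR713 and YR714). Mice of both genotypes carried the floxed allele and had received 4OH-T (4-hydroxytamoxifen) at P10 and P14, and they were 2 months old. The inducible Cre follows *Rax*, and the study places the loss of *Yap* in Müller cells and in the non-pigmented epithelium of the ciliary body, so that neurons carrying NMDA receptors are not its stated target. *Yap1* itself, which checks the labels, was at 9.48, 9.52 and 9.82 TPM (transcript abundance per exonic base, scaled to one sum in every retina) in the controls and at 3.99, 3.76 and 3.94 TPM in the *Yap* cKO retinas, with a log2 fold change of -1.36 and an adjusted p of 0.000282. Between 24261799 and 35067068 fragments per retina were assigned to genes.

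NMDA receptors are glutamate-gated ion channels that let calcium into the cell when glutamate and a co-agonist, glycine or D-serine, are bound and the membrane is depolarised. Each channel contains GluN1, the product of *Grin1*, which binds the co-agonist and is needed in every receptor. The GluN2 subunits (*Grin2a* to *Grin2d*) bind glutamate and set the speed and magnesium block of the channel, and the GluN3 subunits (*Grin3a* and *Grin3b*) bind glycine and lower calcium entry. In the retina the receptors are known mainly from ganglion cells and amacrine cells, and excess activation of them is a classical route to ganglion cell death.

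The family shares a pore, yet its mRNAs can be told apart by short reads. The stretch of the coding sequence that holds the codons of the most conserved membrane segment is shown to make this visible, because reads assigned to the wrong family member would blur every value that follows. In these 30 bases, read on the coding strand from the GENCODE M21 transcripts, capitals mark the 16 positions at which the 6 genes shown carry the same base.
Grin1: gTggCttccTAcACtGCcAAccTGGCaGCc
Grin2a: cTtgCaagtTAcACaGCcAAccTGGCtGCc
Grin2c: cTcgCtagcTAcACgGCcAAtcTGGCaGCc
Grin2d: cTtgCcagcTAtACaGCcAAtcTGGCtGCc
Grin3a: cTttCtacaTAcACaGCgAActTGGCtGCt
Grin3b: cTatCcagtTAcACaGCcAAccTGGCaGCt
The stretches lie in GRCm38 at chr2:25297202-25297231 in exon 15 of 21 of *Grin1* (minus strand), at chr16:9653450-9653479 in exon 10 of 14 of *Grin2a* (minus), at chr11:115253752-115253781 in exon 11 of 15 of *Grin2c* (minus), at chr7:45854282-45854311 in exon 8 of 12 of *Grin2d* (minus), at chr4:49770473-49770502 in exon 3 of 9 of *Grin3a* (minus) and at chr10:79974630-79974659 in exon 3 of 9 of *Grin3b* (plus). Pairs of these 6 genes differed at between 4 bases (*Grin2a* and *Grin2d*) and 10 bases (*Grin3a* with *Grin1* or *Grin2c*). Over all annotated transcripts, 0 stretches of 40 bases, the length of the reads, were shared between any of the 7 genes. The one sizeable match outside the family was to the processed pseudogene *Gm7328*, which holds 2106 stretches of *Grin2a*, 11.7% of its distinct ones, 2104 of them within coding sequence. A read from that part fits both places. If such reads were left uncounted, the level of *Grin2a*, its rank and its GluN2 share given below would be too low, which was not tested. *Gm7328* itself had between 0 and 9 counts per retina. The exons of *Grin1* share 1307 bases with the antisense gene *Grin1os*, those of *Grin3b* share 1059 with *Tmem259* and those of *Grin2d* share 643 with *Gm45441*, in each case on the opposite strand, and counting used the strand.

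*Grin1*, the obligatory subunit gene (ENSMUSG00000026959, chromosome 2, 25291181 to 25319187, minus strand), was by far the highest of the family. Its level was 41.5, 38.6 and 39 TPM in controls YR612, YR613 and YR615. In *Yap* cKO YR711, YR713 and YR714, in the order kept from here on, it was 44.9, 44.6 and 48.7 TPM. Its exonic length is 9700 bases. The 3 *Yap* cKO values were all above the 3 controls on this scale, but they overlapped as CPM (counts relative to the library total), where control YR612 stood higher than YR711 and YR713. The means were 39.7 ± 1.59 TPM and 46.1 ± 2.27 TPM (SD, n = 3 each). The log2 fold change of *Grin1*, *Yap* cKO minus control, was 0.16 with a 95% interval of -0.035 to 0.35 and did not pass edgeR's quasi-likelihood test (adjusted p = 0.31).

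**Figure D1:**
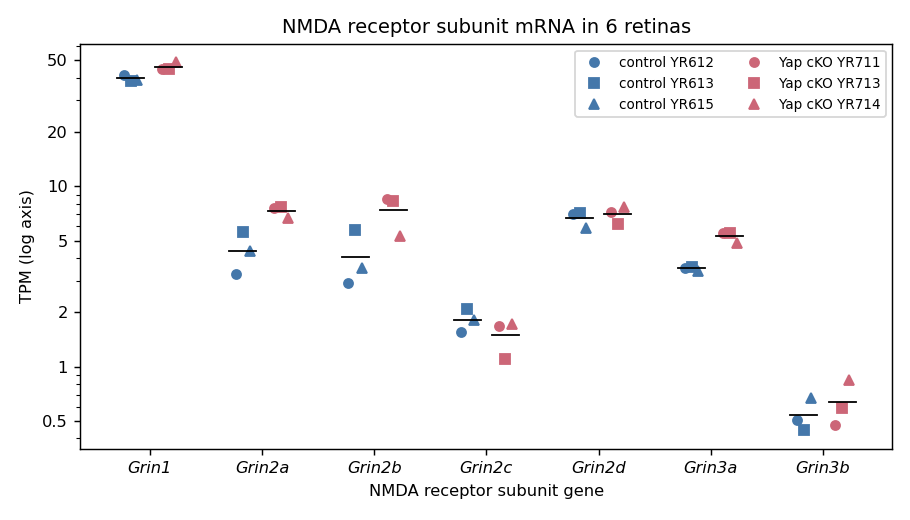
TPM of the 7 NMDA receptor subunit genes on a log axis, with 1 point per retina (blue, control; red, *Yap* cKO; one shape per animal within a group) and a black line at each group mean. The *Grin2a* and *Grin3a* points of the groups are apart, while those of *Grin2b* overlap because control YR613 at 5.74 TPM stands above *Yap* cKO YR714 at 5.33 TPM.

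Among the GluN2 genes, *Grin2a* and *Grin2b*, which code for the main GluN2 subunits of the adult forebrain, were higher in *Yap* cKO retinas by mean, without meeting the criteria, and *Grin2c* and *Grin2d* did not pass the test either. *Grin2a* (ENSMUSG00000059003, chromosome 16, 9567898 to 9995560, minus strand, exonic length 17933 bases) was at 3.26, 5.57 and 4.38 TPM in the controls and at 7.56, 7.66 and 6.65 TPM in the *Yap* cKO retinas. Every *Yap* cKO value was above every control value, and control YR612 was the lowest. The means were 4.4 ± 1.15 TPM and 7.29 ± 0.557 TPM (SD, n = 3 each). The log2 fold change was 0.68 (SE 0.15, 95% interval 0.34 to 1.01, 1.6-fold), with an unadjusted p of 0.00134 and an adjusted p of 0.0634 in edgeR's quasi-likelihood test.

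*Grin2b* (ENSMUSG00000030209, chromosome 6, 135713233 to 136173511, minus strand) has the longest exonic sequence of the family, 24842 bases. It was at 2.92, 5.74 and 3.51 TPM in the controls and at 8.46, 8.32 and 5.33 TPM in the *Yap* cKO retinas. The groups overlapped, since control YR613 exceeded *Yap* cKO YR714. With means of 4.06 ± 1.49 TPM and 7.37 ± 1.77 TPM (SD, n = 3 each), its log2 fold change of 0.81 (SE 0.23, 95% interval 0.29 to 1.33, 1.75-fold) was the largest of the 7, at an unadjusted p of 0.00618 and an adjusted p of 0.11 in edgeR's quasi-likelihood test. Both genes had been singled out by the study on these same samples, so their direction here is not independent evidence.

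*Grin2c* (ENSMUSG00000020734, chromosome 11, 115249169 to 115267243, minus strand, 5037 exonic bases), in the brain a subunit gene mainly of the cerebellum, was at 1.57, 2.09 and 1.81 TPM in the controls and at 1.68, 1.09 and 1.71 TPM in the *Yap* cKO retinas. These values rest on 48 to 72 counts per retina. For the 48 counts of YR713 the exact 95% Poisson interval runs from 35.4 to 63.6, which covers counting error only. The groups overlapped, and the log2 fold change of -0.35 (95% interval -0.83 to 0.13) had an adjusted p of 0.354. It was the one negative value of the family.

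*Grin2d* (ENSMUSG00000002771, chromosome 7, 45831883 to 45878378, minus strand, 6658 exonic bases), whose subunit gives slowly closing channels with weak magnesium block, was at 7.03, 7.08 and 5.90 TPM in the controls and at 7.24, 6.20 and 7.65 TPM in the *Yap* cKO retinas. The groups lay on top of each other. The log2 fold change was 0.017 with a 95% interval of -0.27 to 0.31 (adjusted p = 0.949), so a change in *Grin2d* of the size of the mean difference in *Grin2a* lies outside that interval.

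Of the GluN3 genes, *Grin3a* (ENSMUSG00000039579, chromosome 4, 49661611 to 49845744, minus strand, 12275 exonic bases) had controls that lay close together. Its levels were 3.53, 3.58 and 3.4 TPM in the controls and 5.52, 5.49 and 4.85 TPM in the *Yap* cKO retinas. All 3 *Yap* cKO values were above the controls, and each group spanned less than the gap between them. The means were 3.5 ± 0.0908 TPM and 5.29 ± 0.377 TPM (SD, n = 3 each), and the log2 fold change of 0.54 (SE 0.10, 95% interval 0.31 to 0.76) had an adjusted p of 0.0347 in edgeR's quasi-likelihood test. *Grin3a* therefore rose at the adjusted p of 0.05, by 1.45-fold, which is below the 1.5-fold asked for here.

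*Grin3b* (ENSMUSG00000035745, chromosome 10, 79970715 to 79977190, plus strand, 3296 exonic bases), which codes for the GluN3 subunit known best from motor neurons, was the lowest of the family. It was at 0.506, 0.443 and 0.671 TPM in the controls and at 0.475, 0.593 and 0.844 TPM in the *Yap* cKO retinas, from 10 to 19 counts per retina. A count of 10 carries an exact 95% Poisson interval of 4.80 to 18.4, wider than the whole range of counts between retinas. The groups overlapped, and the log2 fold change of 0.17 had a 95% interval of -0.58 to 0.92 (adjusted p = 0.789), so that at this depth even a substantial change in *Grin3b* was not detectable.

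**Figure D2:**
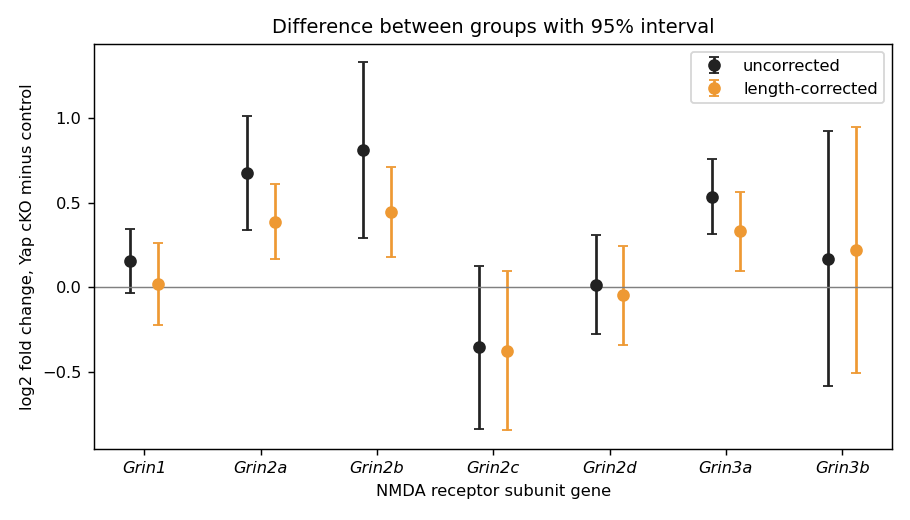
Log2 fold change, *Yap* cKO minus control, of the 7 genes with 95% intervals from edgeR's quasi-likelihood fit, without correction (black) and with each retina corrected for exonic gene length (orange). The intervals of *Grin2a*, *Grin2b* and *Grin3a* lie above 0 in both fits, and the values fall from 0.68, 0.81 and 0.54 to 0.39, 0.44 and 0.33 with the correction.

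The criteria for a called gene were an adjusted p no higher than 0.05, a change of 1.5-fold or more and a group mean reaching 5 TPM in either group. By them 0 of the 7 genes were called with edgeR's quasi-likelihood test, beside 132 of 16575 genes tested (0.796%). The study itself, with edgeR and the same cutoffs, reported more differentially expressed genes than these 132, with *Grin2a* and *Grin2b* among them. The quasi-likelihood fit used here was thus the stricter one. Its methods do not say which edgeR test was used. At the adjusted p alone 1 of 7 passed (*Grin3a*), beside 1.49% of all genes, and at an unadjusted p of 0.05 it was 3 of 7, all higher in *Yap* cKO (*Grin2a*, *Grin2b* and *Grin3a*), where 12% of all genes were that far higher. Retinas of both genotypes were fully apart, as CPM with *Yap* cKO higher, for 2 of 7 (*Grin2a* and *Grin3a*), beside 12.3% of all genes. Other tests of the same counts called *Grin2a* and *Grin2b*. This was so with DESeq2 (adjusted p of 0.00173 and 0.00824), which called 263 genes (1.59% of all). It was so with edgeR's likelihood ratio test (0.00249 and 0.0196), which called 291 (1.76%). It was also so with the quasi-likelihood test on all 30129 genes with a count (3.89e-07 and 1.8e-11, 1.22% called). That unfiltered fit had nearly the same log2 fold changes (0.67 and 0.81). In it 1865 genes passed the adjusted p alone, against 247 with the filter, and the cause was not tested. With limma-voom 0 of the 7 were called.

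Single retinas decided these calls. Without control YR613 both *Grin2a* (log2 fold change 0.85, adjusted p = 0.00807) and *Grin2b* (1.12, adjusted p = 0.0101) were called, in a fit that called 3.06% of all genes. Without *Yap* cKO YR714 both were called as well (0.72, adjusted p = 0.0315, and 0.98, adjusted p = 0.0257), with 2.66% of all genes called. *Grin3a* no longer passed the adjusted p when YR612 (0.135) or YR615 (0.168) was left out of the controls, nor when YR711 (0.0803) or YR713 (0.174) was left out of the *Yap* cKO retinas, with log2 fold changes between 0.51 and 0.56 in those fits. A fit that leaves out a retina has fewer samples in 1 group.

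In control retinas the order of mean levels per exonic base was *Grin1*, *Grin2d* (6.67 TPM), *Grin2a* (4.4), *Grin2b* (4.06), *Grin3a* (3.5), *Grin2c* (1.82) and *Grin3b* (0.540). The ranges of *Grin2a* and *Grin2b*, and those of *Grin2b* and *Grin3a*, overlapped, so that their order is not settled, while the steps from *Grin1* to *Grin2d*, from *Grin2d* to *Grin2a*, from *Grin3a* to *Grin2c* and on to *Grin3b* did not overlap. In *Yap* cKO retinas *Grin2b* (7.37 TPM), *Grin2a* (7.29) and *Grin2d* (7.03) had overlapping ranges, followed by *Grin3a* (5.29), *Grin2c* (1.5) and *Grin3b* (0.637). The distance between *Grin2d* and *Grin2a* seen in controls was thus not present. Levels between genes depend on the length used. *Grin1* has 8 annotated coding transcripts and its longest is 4276 bases, less than the 9700 bases of the union of exons, so dividing by the transcript raised its control level to 90.1, against 8.18 for *Grin2d*, 5.74 for *Grin3a*, 5.39 for *Grin2a* and 4.19 for *Grin2b* on the same scale. *Grin1* and *Grin2d* kept the first places in controls, and the order of the next genes changed.

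The make-up of the GluN2 pool moved towards *Grin2a* and *Grin2b* by mean. As a share of the summed GluN2 TPM, *Grin2a* took 22.1%, 27.2% and 28.1% in the controls and 30.3%, 32.9% and 31.2% in the *Yap* cKO retinas, which did not overlap. *Grin2c* took 10.6%, 10.2% and 11.6% in the controls and 6.73%, 4.71% and 8.03% in the *Yap* cKO retinas, also without overlap. *Grin2b* went from a mean of 23.4 ± 4.22% to 31.5 ± 5.76% and *Grin2d* from 40 ± 6.77% to 30.5 ± 4.78% (SD, n = 3 each), with overlap in both. The differences were 5.70 percentage points for *Grin2a* and -4.30 for *Grin2c*, each at p = 0.1 in a two-sided exact permutation test, which is the smallest p that 3 retinas against 3 allow, and 8.10 for *Grin2b* and -9.50 for *Grin2d* at p = 0.2 each in the same exact test. With 4 such tests, the adjusted p cannot fall below the raw one, and shares of 1 sum cannot move independently. After correction for gene length they became 4.06, -3.22, 5.05 and -5.9 percentage points for *Grin2a*, *Grin2c*, *Grin2b* and *Grin2d*. The *Grin2a* shares then overlapped, with control YR615 at 29.7% and *Yap* cKO YR711 at 29.1% (exact permutation p = 0.2), and those of *Grin2c* did not (exact p = 0.1).

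**Figure D3:**
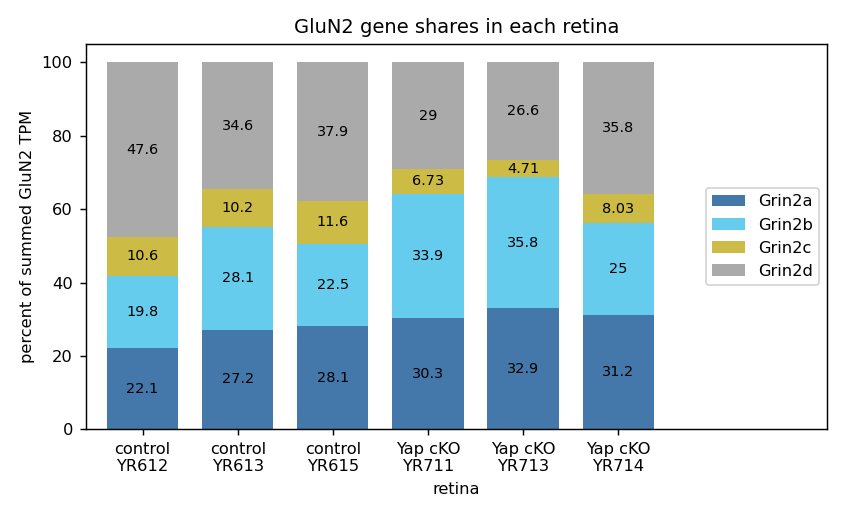
Stacked bars of the share of each GluN2 gene in the summed GluN2 TPM of each retina, in percent, with the value printed in each segment. The *Grin2a* segment spans 22.1 to 28.1% in the controls and 30.3 to 32.9% in the *Yap* cKO retinas, and the *Grin2c* segment 10.2 to 11.6% and 4.71 to 8.03%.

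The ratio of *Grin2a* to *Grin2b* overlapped between the groups. In TPM it was 1.12, 0.969 and 1.25 in the controls and 0.894, 0.921 and 1.25 in the *Yap* cKO retinas. The log2 difference was -0.13 (two-sided exact permutation p = 0.6). With 3 retinas against 3 the smallest p is 0.1, so this does not show that *Grin2a* and *Grin2b* moved together. The ratio of their sum to *Grin1* was 0.149, 0.293 and 0.202 in the controls and 0.357, 0.359 and 0.246 in the *Yap* cKO retinas. Control YR613 stood above *Yap* cKO YR714, and the log2 difference of 0.61 had an exact permutation p of 0.2, over 2 such ratios tested. Without control YR612 it was 0.38 (exact p = 0.3). The summed TPM of all 7 genes was 60.3, 63.1 and 58.7 in the controls and 75.9, 73.9 and 75.7 in the *Yap* cKO retinas, that of the GluN3 genes 4.04, 4.02 and 4.07 against 6, 6.08 and 5.70. By mean *Grin1*, which overlapped between groups as CPM, made up 65.5% of the sum of all 7 in controls and 61.3% in *Yap* cKO retinas. The sums were neither tested nor corrected for length.

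The changes followed exonic gene length. Over the 7 genes Pearson's r between log2 fold change and log10 length was 0.82 and Spearman's rho 0.79, and over all 16575 genes tested the same measures were 0.27 and 0.39. These are descriptions across genes that share the same 6 retinas. When all genes were cut by length into 10 bins of like size, the median log2 fold change climbed from -0.17 in the shortest (57 to 1360 bases) to 0.21 in the longest (9602 to 123179 bases), where 85.7% of genes were above 0. *Grin1*, *Grin2a*, *Grin2b* and *Grin3a* all belong to that longest bin. Within it *Grin1* stood in the lower part, with 38.8% of the genes below it, whereas 97.5% were below *Grin2a*, 98.9% below *Grin2b* and 92.2% below *Grin3a*. This bin is wide, and *Grin1*, with 9700 bases, lies at its short end. These percentages therefore compare genes of unlike length, and values at each gene's own length are given below. Of the shorter members, *Grin2d* had 38.3% and *Grin2c* 5.31% of the genes of its own bin below it, and *Grin3b* 85.5%.

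**Figure D4:**
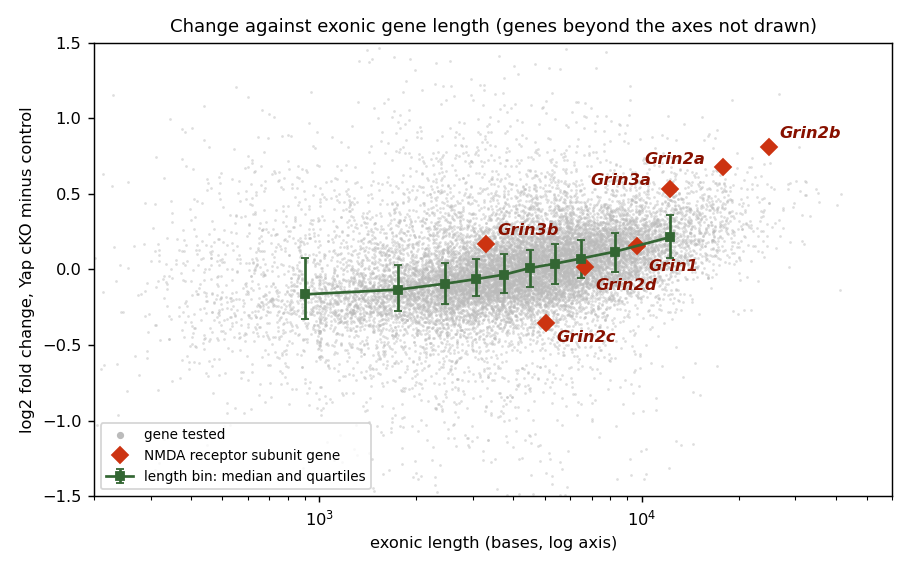
Log2 fold change, *Yap* cKO minus control, against exonic length on a log axis for the genes tested (grey) and the 7 subunit genes (red diamonds), with the median and quartiles of each length bin at its median length (green). The green line climbs from -0.17 to 0.21, *Grin1* lies close to it, and *Grin3a*, *Grin2a* and *Grin2b* lie above the upper quartile of the longest bin at 0.36.

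The dependence on length was present in single retinas. A smooth curve (loess) of each gene's log2 CPM, taken relative to its mean over the 6 retinas, against length gave at the length of *Grin2b* -0.35, 0.087 and -0.31 in controls YR612, YR613 and YR615, and 0.32, 0.27 and -0.014 in *Yap* cKO YR711, YR713 and YR714. *Grin2b* itself stood at -0.78, 0.10 and -0.57 in these controls and at 0.62, 0.61 and 0.010 in the *Yap* cKO retinas. Control YR613 and *Yap* cKO YR714, in which *Grin2b* overlapped, were thus the retinas in which long genes in general stood nearest the mean. The curve alone made up 0.38 of the 0.83 between the group means at this length. For *Grin2a* it made up 0.30 of 0.70, for *Grin3a* 0.20 of 0.53 and for *Grin1* 0.13 of 0.16.

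With the curve subtracted, the retinas of *Grin2a* stood at -0.42, -0.093 and -0.082 in the controls and at 0.13, 0.20 and 0.27 in the *Yap* cKO retinas. Those of *Grin3a* stood at -0.017, -0.34 and -0.14 against 0.13, 0.17 and 0.20. For *Grin2b* they were -0.43, 0.017 and -0.26 against 0.31, 0.34 and 0.024, so that the groups touched but did not overlap. On this scale the groups were apart, with *Yap* cKO higher, for these 3 of 7 genes, beside 12.3% of all genes, and *Grin2b* was the one of them that had overlapped before. In the length-corrected quasi-likelihood fit, where 0.935% of all genes were called and 2.77% passed the adjusted p alone, 0 of the 7 did either. The log2 fold changes in that fit were 0.39 for *Grin2a* (95% interval 0.17 to 0.61, adjusted p = 0.0671), 0.44 for *Grin2b* (0.18 to 0.71, adjusted p = 0.0772) and 0.33 for *Grin3a* (0.099 to 0.56, adjusted p = 0.119). *Grin1* came to 0.021 (-0.22 to 0.26), *Grin2c* stayed at -0.37, *Grin2d* turned to -0.046 and *Grin3b* was at 0.22. Whether the dependence on length arose in the RNA, the libraries or the tissue was not tested.

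**Figure D5:**
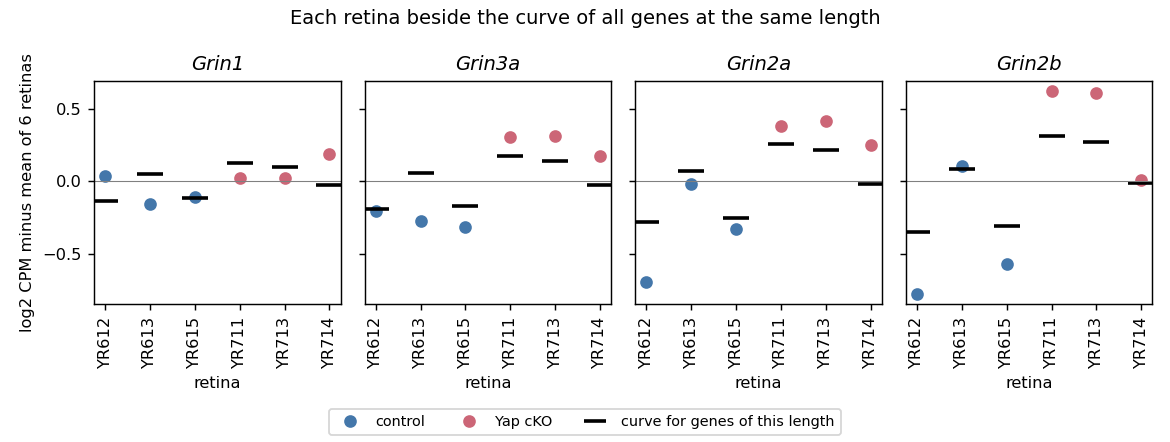
Log2 CPM of *Grin1*, *Grin3a*, *Grin2a* and *Grin2b* in each retina relative to the mean of the 6 (dots; blue, control; red, *Yap* cKO) beside the curve of all genes at the same exonic length (black bars). The bars of *Grin2b* run from -0.35 to 0.32, with those of YR613 and YR714 near 0, and the *Grin2b* dots lie beyond the bars in YR612, YR615, YR711 and YR713.

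The other glutamate receptor families were compared by counts and medians. Over all genes tested the median log2 fold change was 0.002, with 8329 above 0. All 4 AMPA receptor genes, which carry fast excitatory transmission, were above 0 (median 0.32, and 0.22 after length correction), and 0 of them passed the adjusted p of 0.05. The one nearest to it was *Gria1*, with a log2 fold change of 0.31 and an adjusted p of 0.112. Of the 5 kainate receptor genes 3 were above 0 (median 0.20, 0.087 after correction, 0 past the test, *Grik1* nearest with 0.25 and an adjusted p of 0.151), and both delta receptor genes were (median 0.30, 0.12 after correction, *Grid1* nearest with 0.24 and an adjusted p of 0.161). Among the 8 metabotropic glutamate receptor genes 7 were above 0 (median 0.30, 0.21 after correction) and 1 passed. This was *Grm6*, the receptor by which ON bipolar cells sense photoreceptor glutamate, which rose from 54.9 to 78.3 TPM (log2 fold change 0.46, adjusted p = 0.0249; 0.42 and 0.0126 after correction). The NMDA receptor genes themselves had a median of 0.17, and of 0.22 after correction. The first is the lowest of these 5 receptor families and the second ties with AMPA for the highest, so their place depends on the correction. In both fits the median of the 7 is the value of *Grin3b*, which rests on 10 to 19 counts per retina. The place of the family is thus that of a gene with an uncorrected 95% interval of -0.58 to 0.92. At an unadjusted p below 0.05 in edgeR's quasi-likelihood test, 4 AMPA, 2 kainate, 2 delta and 4 metabotropic receptor genes were higher and 0 lower, where 12% of all genes were higher and 9.42% lower. DESeq2 passed 0 genes of the AMPA, kainate and delta families at an adjusted p of 0.05, and 2 metabotropic receptor genes, beside 5.38% of all genes.

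The co-agonist and the postsynaptic side were described in the same way. Among 10 of 11 genes for synthesis and transport of serine and glycine that could be tested (*Dao* was below the filter), 5 were above and 5 below 0, with a median of -0.016 and 0 past the test. The nearest was *Srr*, the enzyme that makes D-serine, at 31.2 TPM in controls and 44.1 TPM in *Yap* cKO retinas, with a log2 fold change of 0.44 and an adjusted p of 0.0563. After length correction *Srr* passed (0.44, adjusted p = 0.0268), and so did *Psat1*, an enzyme of serine synthesis, in the other direction (-0.34, adjusted p = 0.04). Of 21 postsynaptic scaffold genes 18 were above 0 (median 0.28, 0.12 after correction) and 0 passed, *Shank2* being nearest with 0.53 and an adjusted p of 0.0506. After length correction *Shank2* (0.37, adjusted p = 0.0268) and *Lin7a* (1.004, adjusted p = 0.0455) passed, named here after their values were seen. Of 11 genes for transport and anchoring of NMDA receptors 8 were above 0 (median 0.18, 0.030 after correction) and 0 passed, *Rph3a*, whose product binds GluN2A, being nearest with 0.24 and an adjusted p of 0.103. Of 21 genes of calcium signalling downstream of the receptor 17 were above 0 (median 0.11, 0.090 after correction) and 0 passed, with *Dapk1*, a calmodulin-dependent death kinase, nearest at 0.38 and an adjusted p of 0.086. Unadjusted p-values below 0.05 were held by 2 higher and 1 lower co-agonist genes, 13 higher and 1 lower scaffold genes, 5 higher transport genes and 7 higher calcium signalling genes, against the same 12% and 9.42% of all genes. With DESeq2 the genes past an adjusted p of 0.05 numbered 2, 4, 2 and 4 in these lists, and 3 among the NMDA receptor genes, beside the 5.38% of all genes.

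In bulk retina, fewer cells of a type and less RNA per cell cannot be told apart, so marker genes of the cells that carry the receptors are given beside these values. The 12 ganglion cell markers had a median log2 fold change of -0.003, 0 passed the quasi-likelihood test, 0 had an unadjusted p below 0.05, 0 passed with DESeq2, and their summed TPM ranged from 2626 to 2977 in controls and from 2672 to 2997 in *Yap* cKO retinas. The 12 amacrine markers had a median of 0.11, with 10 above 0, 0 past the test (4 at an unadjusted p below 0.05, 1 with DESeq2, *Chat* nearest with 0.42 and an adjusted p of 0.0884) and sums of 1932 to 2128 and 1983 to 2124 TPM. The sums of both neuron types overlapped between groups, while those of the 11 Müller glia markers did not (7871 to 8188 TPM and 6964 to 7281 TPM, median -0.21, *Rlbp1* nearest to the test with -0.36 and an adjusted p of 0.054). These sums weigh genes by level, and *Glul* alone had means of 3017 TPM in controls and 2711 TPM in *Yap* cKO retinas. Of the 11 markers 4 were above and 7 below 0. At an unadjusted p below 0.05 in the quasi-likelihood test 1 was higher and 5 were lower, beside 12% and 9.42% of all genes. The 9 bipolar markers went both ways (median 0.14, 4 higher and 3 lower at an unadjusted p below 0.05), 1 of them passed (*Grm6*), and their sums were 1535 to 1618 and 1350 to 1610 TPM. Of the 4 astrocyte markers 2 were above and 2 below 0 (median -0.10), and their sums overlapped at 88.2 to 110.9 and 86.5 to 95.6 TPM. Only *Aldh1l1* passed the quasi-likelihood test, with a fall of 0.79 on the log2 scale (adjusted p = 0.00437). Retinal pigment epithelium markers stood at 619.9, 686 and 650.4 TPM in controls and at 193, 357 and 668 TPM in the *Yap* cKO retinas (lowest in YR711, highest in YR714). Lens markers reached 14.5 TPM in control YR615 and lay between 0.867 and 3.61 TPM in the other retinas. The remaining lists had no gene past the quasi-likelihood test, with medians of 0.48 for horizontal cells, -0.065 for rods, 0.028 for cones, 0.10 for microglia, -0.019 for endothelial cells and 0.27 for oligodendrocytes. The oligodendrocyte median comes from 2 of 4 genes, as *Mog* and *Mag* were below the filter. The oligodendrocyte sums did not overlap (16 to 17.3 TPM in controls, 17.9 to 22.1 TPM in *Yap* cKO retinas). The horizontal cell median comes from 4 genes, 3 of them above 0. *Calb1*, the most abundant, was at -0.23, and the sums overlapped at 106.1 to 121.9 TPM in controls and 103.8 to 111.8 TPM in *Yap* cKO retinas. After length correction, where 2.77% of all genes passed, *Rlbp1* did too (-0.29, adjusted p = 0.0453). So did the bipolar marker *Nyx* (0.70, adjusted p = 0.0262), which met all criteria for a called gene, and the cone marker *Arr3* (0.35, adjusted p = 0.0189). *Grm6* and *Aldh1l1* (-0.79, adjusted p = 0.00127) still passed. These were named after their values were seen. The part of any of these cell types in the values of the receptor genes was not tested.

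The genes whose pattern over the 6 retinas was most like each member were looked up among 11990 genes with a mean of at least 5 TPM, as a description by Pearson's r of log2 CPM. *Grin2b* had the closest partners, with *Kcnq3*, a potassium channel gene, at 0.9999, *Stxbp5l* at 0.999 and *Pds5b* at 0.999, and 848 genes above 0.95. *Grin2a* had *Grip1* at 0.996, *Simc1* at 0.995 and *Mapk8* at 0.995, and 296 genes above 0.95. For *Grin3a* they were *Fam53c* (0.992), *Zfyve1* (0.991) and *Per2* (0.988) among 108 genes above 0.95, and for *Grin1* they were *Grm4* (0.985), *Apc2* (0.978) and *Shank3* (0.978) among 26. The remaining members had fewer such genes, 8 for *Grin2c* (*Nol10*, *Mrpl16* and *Brix1* first), 5 for *Grin2d* (*Gss*, *Sema4c* and *Pcbp3*) and 21 for *Grin3b* (*Tmem179*, *Fibcd1* and *Bcs1l*). All these values rest on the same 6 retinas in 2 groups.

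YAP acts on DNA through TEAD factors, whose core motif is CATTCC, so promoters were searched for it. Promoter sequences of 300 bases (250 before to 50 after the start, RefSeq, GRCm38.p6) were matched for 4 members, *Grin1*, *Grin2c*, *Grin2d* and *Grin3b*. For *Grin2a*, *Grin2b* and *Grin3a* no promoter sequence was at hand, so they were not searched. The study gives *Grin2a* and *Grin2b* as potential direct targets of YAP, from a database of binding experiments. Searched on both strands, the motif was in 1 of the 4, beside 14.7% of all 32851 promoters of that length. The match was in *Grin1*, 219 bases before the start, shown here with the motif in capitals, on the minus strand at chr2:25319379-25319428.
Grin1 promoter: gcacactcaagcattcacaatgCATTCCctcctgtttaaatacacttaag
A match of 6 letters is a description of the sequence only. Binding was not measured in these retinas, and *Grin1* did not pass the test.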

How the data were processed

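Whole transcriptome data came from 6 retinas, 3 control and 3 *Yap* cKO, the biological replicates of the study's methods. Stranded read pairs of 40 bases were aligned by the authors to GRCm38 with STAR 2.7.3a, and they counted fragments on exons with featureCounts 1.6.2. The deposited values are raw counts per gene beside exonic length, and the file header names annotation release 98. Symbols, transcripts and exon numbers came from GENCODE M21. Counts were filtered (filterByExpr), scaled by TMM and tested with edgeR 4.0.16 (quasi-likelihood, R 4.3.3), with Benjamini-Hochberg adjustment over 16575 genes. Called genes met the criteria stated in the study's methods. DESeq2 1.42.0 and limma 3.58.1 (voom) were alternatives, as were other size factors, filters, thresholds, each retina left out, and offsets corrected by a loess curve (span 0.3) of log2 CPM (prior count 2) on length in each retina. TPM was computed from counts and length. Steps were checked on simulated data. The members, the gene lists and the rule for named genes (all members, and per list those past an adjusted p of 0.05 or else the nearest one) were chosen with earlier results of these data known. The tests of GluN2 shares and the levels per longest transcript were added after seeing the data. The labels name no batch, litter or sex. Intervals of counts cover counting error only. One sequence of the family is not reported here.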

Additional observations from a re-analysis of the deposited data

How the results depend on the processing

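Over 15 alternatives per gene (14 for *Grin3b*, which a filter on CPM removed), *Grin1* and *Grin2c* kept their direction and did not pass the test in any. With a retina left out, *Grin1* ranged from 0.095 (without YR714) to 0.21 and *Grin2c* from -0.49 to -0.15 (without YR713) in log2 fold change. The number of the 7 genes called was 0 in the reported fit, 2 with DESeq2, the likelihood ratio test or no filter on low counts, 1 without a minimum fold change (*Grin3a*) or at an adjusted p of 0.1 (*Grin2a*), and 0 to 2 with a retina left out. In log2 fold changes, *Grin2a* gained the adjusted p of 0.05 with DESeq2 (0.68), the likelihood ratio test (0.68), no filter (0.67) and length correction with the likelihood ratio test (0.39, below the fold minimum), and ranged from 0.52 to 0.85 with a retina left out. *Grin2b* did so under the same settings (0.81, 0.81, 0.81 and 0.44) and ranged from 0.64 to 1.12. *Grin3a* lost it with length correction under either test (0.33 in both) and ranged from 0.51 to 0.57. *Grin2d* turned to -0.046 with length correction under either test and ranged from -0.069 to 0.11, and *Grin3b* ranged from -0.084 to 0.36. For these gains and losses the cause was not tested. Size factors left the median log2 fold change of all genes between -0.014 and 0.002. The shares and the ratios of GluN2 genes kept their direction under length correction and with any retina left out, but not their size. With a retina left out, the share differences ranged from 3.85 to 6.84 percentage points for *Grin2a*, 6 to 11.4 for *Grin2b*, -5.07 to -3.41 for *Grin2c* and -12.2 to -5.71 for *Grin2d* (the last without YR612). The log2 ratio of *Grin2a* to *Grin2b* ranged from -0.28 (without YR714) to -0.044 (without YR615 or YR711), and that of their sum to *Grin1* from 0.38 (without YR612) to 0.86. No paired analysis was possible because the retinas of the groups share no replicate numbers. *Grin2c* and *Grin3b* rest on the fewest counts, 48 to 72 and 10 to 19 per retina.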
